A study of Mus musculus with 6 samples.

Results

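The 41 enzyme genes described here make serine and glycine, carry single carbon units on folate, run the methionine cycle, turn homocysteine into cysteine and glutathione, make and break down polyamines, and interconvert glutamine, glutamate and proline. They were taken by symbol from a list of these pathways, all 41 were found among the 34718 genes of the count table, and 36 had enough counts to test. The study sequenced total RNA from cultured Hepa1-6 cells, a mouse hepatoma line, in 2 groups of 3 libraries: shNC, labelled control, and shZfp207, labelled Zfp207 knockdown. Zfp207 is the mouse counterpart of ZNF207, a zinc finger protein that binds the spindle checkpoint protein BUB3. Both groups share the cell line and its culture medium, no other treatment is given, and a tissue label calls the samples tumor although the cells were cultured. The labels do not say how many hairpins were used, whether cells were cloned or whether replicates were separate cultures. The p-values therefore cover only library-to-library spread, which may be technical.

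Serine made from a glycolytic intermediate gives its side carbon to tetrahydrofolate, and a cytosolic and a mitochondrial set of enzymes pass that carbon between oxidation states for nucleotide synthesis and for remethylation of homocysteine to methionine. Methionine is activated to S-adenosylmethionine, the donor of most methyl groups, and its decarboxylated form supplies the aminopropyl groups of spermidine and spermine. Adult liver is known for the liver forms of several of these enzymes, among them Mat1a, Gnmt, Bhmt and Gls2, and proliferating hepatoma cells for the form Mat2a.

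Gene counts summed to between 11933736 and 16248346 per library. Zfp207 had 141, 198 and 217 CPM in shNC replicates 1 to 3 and 48, 48.1 and 46.8 CPM in shZfp207 replicates 1 to 3 (counts per 1000000), so the knockdown libraries kept 25.9% of the control level (log2 fold change -1.95 with an SE of 0.17 and adjusted p = 0.00236 in edgeR). Of 10 hepatocyte markers all had counts, with Hnf4a at 340 to 379 CPM, Alb at 524 to 2379 CPM and Afp at 742 to 1960 CPM, while Ttr and Serpina1a had at most 0.342 CPM. Of the 8 tested, 3 were higher in shZfp207 (Alb, Afp and Apoa1) and 4 lower (Apoa2, Trf, Krt8 and Krt18). Apoa2 had 5, 2 and 4 counts in shZfp207 replicates 1 to 3, so it was testable only through its control level. The part of these changes in the results on the enzymes was not tested. The 12 leukocyte markers summed to 15.02 to 19.8 CPM in shNC and 14.8 to 17.0 CPM in shZfp207, and 4 of them (Cd3e, Cd3g, Cd8a and Nkg7) were at 0. Most of that sum was Cd68, and 1 of the 12 was called, Csf1r, with 0.168, 0.411 and 0.862 CPM in shNC replicates 1 to 3 and 3.41, 3.18 and 3.08 CPM in shZfp207 replicates 1 to 3 (log2 fold change 2.68 with an SE of 0.468 and adjusted p = 0.0117 in edgeR). Its controls were mostly under the filter's count minimum. The 8 fibroblast markers summed to 2046 to 2310 CPM in shNC and 2702 to 2785 CPM in shZfp207, nearly all of it Dcn, with Col1a1 at most 0.73 CPM. Of the 3 tested, 1 was called, Pdgfra, which was lower in shZfp207 (log2 fold change -0.54, edgeR adjusted p = 0.0181). Dcn was not called (log2 fold change 0.33, edgeR adjusted p = 0.0968), but was higher in the fit without shNC replicate 1 (0.27, edgeR adjusted p = 0.000735). The 6 endothelial markers summed to at most 3.85 CPM. The shNC replicate 1 library stood apart: the mitochondrial genome supplied 10.5% of its counts, where the other controls had 2.89% and 2.67% and shZfp207 had 5.60% to 6.00%. Its log2 CPM correlated across genes at 0.95 with the other controls, which correlated at 0.989 with each other. The counts of calls, and the fold changes reported here that it moves across the threshold, are therefore also given without it. What set it apart was not tested.

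Across the members, knockdown was not a shift in one direction. By edgeR's quasi-likelihood test with Benjamini-Hochberg adjustment over all genes and a threshold of 0.05, 4 members rose (Shmt1, Ahcy, Glul and Glud1), 7 fell (Phgdh, Aldh1l1, Gnmt, Cth, Srm, Smox and Pycr1) and 25 did not pass. The 11 calls were 30.6% of the 36 tested members, where 20.6% of all 11975 genes tested were called, 9.92% higher and 10.7% lower. The median log2 fold change was 0.08 over the members and -0.03 over all genes. In 20 of the 36 members the groups did not overlap in CPM, 10 of them higher and 10 lower, where 44.9% of all genes did not, 21.5% higher and 23.4% lower. In bulk RNA, fewer cells with a transcript and less of it per cell cannot be told apart. Fold changes were mostly small: of the 11, only Pycr1, Aldh1l1 and Gnmt changed at least 2-fold. Of these, Aldh1l1 and Gnmt passed the count filter only through their control level, so their calls count for less. Without shNC replicate 1, 10 members were higher and 13 lower, 63.9% of them, where 52.1% of all 12108 genes tested were called, 26.1% higher and 26.1% lower. Among the 10 higher in that fit, Amt passed the count filter only through its knockdown level. All 11 calls were kept in that fit in the same direction. In the 5 fits that left out another library, only Cth and Gnmt kept a call at all. The call of Cth was lost without shZfp207 replicate 3 (edgeR adjusted p = 0.0571), and that of Gnmt without shZfp207 replicate 1 or replicate 2 (0.0601 and 0.0607). The other 9 lost theirs in each of those 5 fits, with edgeR adjusted p of up to 0.179.

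**Figure D1:**
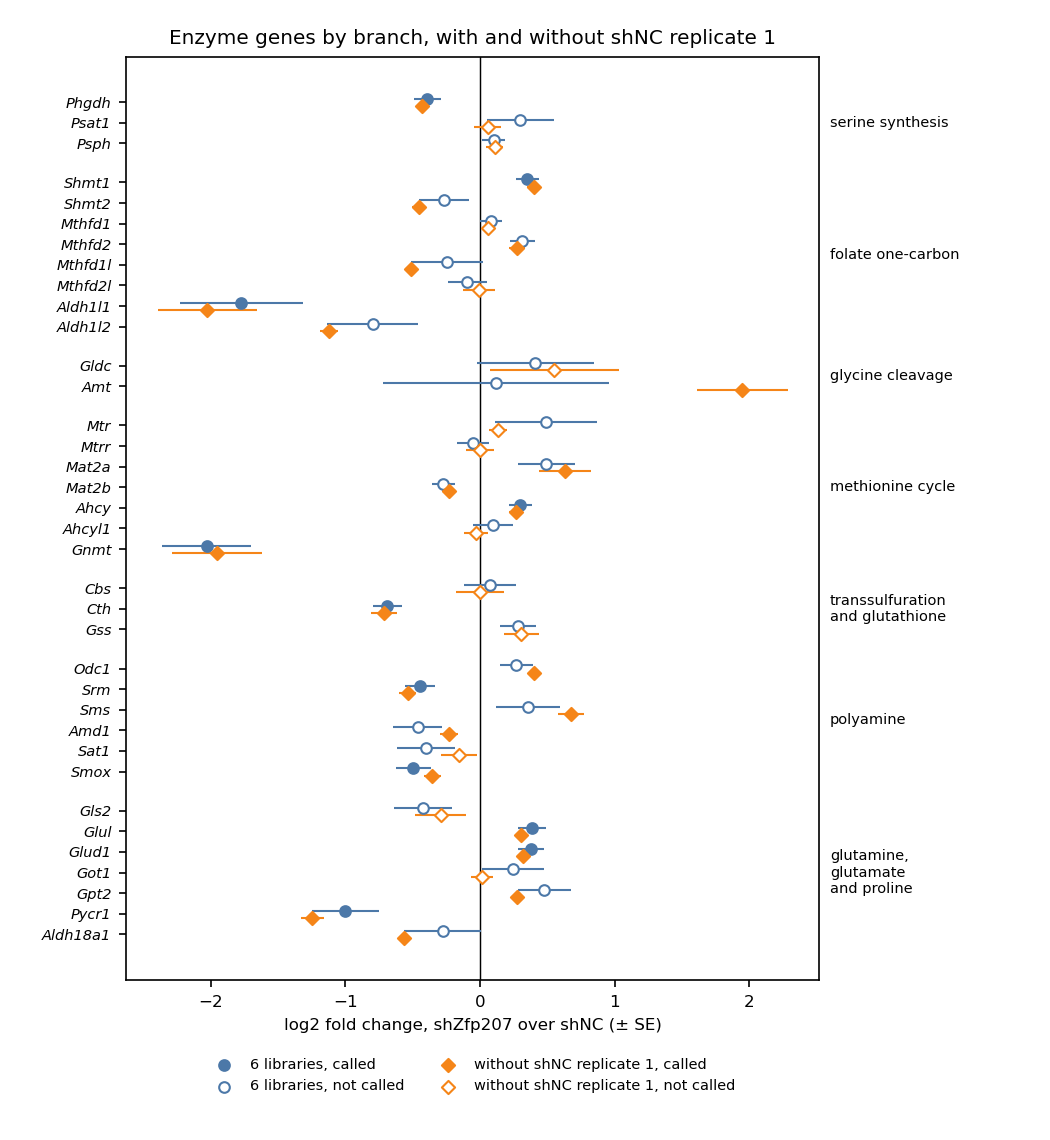
The log2 fold change of shZfp207 over shNC (x axis, bars ± SE) is plotted for the 36 tested enzyme genes in branch order, as circles from 6 libraries and as diamonds without shNC replicate 1, filled where edgeR called the gene. Gnmt (-2.03), Aldh1l1 (-1.77) and Pycr1 (-1.002) lie farthest to the left, and Amt is the gene whose value moves most between the fits.

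Levels per length, as the deposited FPKM values give them, differed over a wide range between the members. Phgdh was highest in control cells with a mean of 442 FPKM, followed by Shmt2 (263), Odc1 (106), Glul (77.8), Aldh18a1 (68.1), Psat1 (67.2) and Glud1 (64.2). At the low end were several genes, liver-type forms among them. Bhmt and Bhmt2, the betaine-dependent homocysteine methyltransferases, had 0 counts in all 6 libraries, so levels of up to 0.185 to 0.251 CPM, set by each library's total, could have gone unseen (3 counts, counting error only). Mat1a, the methionine adenosyltransferase of adult liver, had 6, 1 and 1 counts in shNC replicates 1 to 3 and 8, 6 and 4 counts in shZfp207 replicates 1 to 3. Ggt1, the gamma-glutamyltransferase that starts glutathione breakdown, had 2 to 9 counts per library, and Cdo1, the cysteine dioxygenase that opens cysteine oxidation, 1 to 10. These 5 were not tested.

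Because several of these genes are known targets of stress and growth factors, the 250 bases before the RefSeq start (GRCm38.p6, the assembly that mm10 denotes) were searched on both strands for 3 motifs. They were the amino acid response element bound by ATF4 with C/EBP proteins (TGATGNAAN), the E-box bound by MYC and related factors (CACGTG, a palindrome, counted once) and the antioxidant response element bound by NRF2 with small MAF proteins (TGACNNNGC). Of the members 35 had an entry, with 43 start sites, and Aldh1l2, Mat1a, Cth, Cdo1, Srm and Gls2 had none. The first motif was in 2 of the 43 windows (Pycr1 and Got1), against 3.44% of the 32851 windows of all genes. The E-box was in 3 (Aldh18a1, Cbs and Sms), against 6.02%, and the antioxidant element in 5 windows of 4 genes (Phgdh, Smox, Ahcyl1 and Ggt1), against 10.2%. Shown here are the windows of 3 called genes with a match and of Aldh18a1 and Got1, which hold the E-box and the other ATF4 match. Aldh18a1 also acts just before Pycr1 in proline synthesis. Each is written 5′ to 3′ on the gene's strand, ends at the base before the start, and has the match in capitals, and no match overlapped another. A match is a description of letters, and binding was not measured.
Pycr1: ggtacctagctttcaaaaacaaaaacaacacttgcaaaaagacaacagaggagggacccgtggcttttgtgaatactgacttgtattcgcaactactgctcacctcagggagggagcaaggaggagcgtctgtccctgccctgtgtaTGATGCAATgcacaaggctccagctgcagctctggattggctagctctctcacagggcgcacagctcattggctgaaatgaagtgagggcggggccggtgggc
Aldh18a1: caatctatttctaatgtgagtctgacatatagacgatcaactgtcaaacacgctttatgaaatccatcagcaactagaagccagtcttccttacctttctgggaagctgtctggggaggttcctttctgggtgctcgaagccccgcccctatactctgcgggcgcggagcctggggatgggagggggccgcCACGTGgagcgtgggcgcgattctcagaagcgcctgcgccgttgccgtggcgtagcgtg
Got1: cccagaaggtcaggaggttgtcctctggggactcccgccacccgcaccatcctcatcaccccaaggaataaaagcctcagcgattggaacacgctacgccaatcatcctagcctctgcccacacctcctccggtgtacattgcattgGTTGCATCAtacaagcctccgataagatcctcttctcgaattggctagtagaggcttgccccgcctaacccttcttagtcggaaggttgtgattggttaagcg
Phgdh: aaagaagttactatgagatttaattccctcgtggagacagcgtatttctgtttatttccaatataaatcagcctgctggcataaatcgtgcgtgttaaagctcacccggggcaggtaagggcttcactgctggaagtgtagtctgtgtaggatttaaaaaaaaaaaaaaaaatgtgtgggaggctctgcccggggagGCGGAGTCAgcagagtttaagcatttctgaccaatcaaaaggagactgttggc
Smox: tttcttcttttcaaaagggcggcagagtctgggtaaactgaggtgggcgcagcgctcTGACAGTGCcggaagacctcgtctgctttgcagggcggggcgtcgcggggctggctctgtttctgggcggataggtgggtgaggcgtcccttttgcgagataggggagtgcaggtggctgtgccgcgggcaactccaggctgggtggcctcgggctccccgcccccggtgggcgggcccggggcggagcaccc
These windows lie at chr11:120643749-120643998, minus strand (Pycr1), chr19:40588464-40588713, minus strand (Aldh18a1), chr19:43524606-43524855, minus strand (Got1), chr3:98339970-98340219, minus strand (Phgdh) and chr2:131491612-131491861, plus strand (Smox). The matches of Pycr1 and Got1 both begin 103 bases before the start, that of Pycr1 reading forward and that of Got1 in reverse.

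In serine synthesis, the first enzyme fell and the others did not pass. Phgdh, phosphoglycerate dehydrogenase (ENSMUSG00000053398, chromosome 3, 98313170 to 98339990, minus strand in mm10), had 1215, 1278 and 1323 CPM in shNC replicates 1 to 3 and 999, 934 and 947 CPM in shZfp207 replicates 1 to 3. Every knockdown library was below every control library. On the scale used for testing the mean went from 1267 ± 61 to 965 ± 29.4 CPM (SD, n = 3 each; log2 fold change -0.39 with an SE of 0.101 and adjusted p = 0.037 in edgeR). Of its longest annotated transcript, 89.5% is at least 95% identical to other annotated genes, 11 in all, and the 1 of them listed in the count table had no counts. Psat1, the aminotransferase of the next step, had 301, 549 and 556 CPM in shNC replicates 1 to 3 and 667, 532 and 519 CPM in shZfp207 replicates 1 to 3. Its control replicate 1 was low at 54.5% of the mean of the other controls, and the groups overlapped (log2 fold change 0.30 with an SE of 0.251 and adjusted p = 0.438 in edgeR). Psph, the phosphatase that releases serine, had 76.4, 69.8 and 79.1 CPM in shNC replicates 1 to 3 and 80.4, 79.3 and 79.97 CPM in shZfp207 replicates 1 to 3. These groups did not overlap, by a narrow margin (log2 fold change 0.10 with an SE of 0.0863 and adjusted p = 0.441 in edgeR). In the fit without control replicate 1 their log2 fold changes were 0.06 and 0.11, neither called.

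In folate metabolism, the cytosolic serine hydroxymethyltransferase rose, while no gene of the mitochondrial set passed the edgeR test with all libraries. The gene of the cytosolic formyltetrahydrofolate dehydrogenase, Aldh1l1, was called lower. It passed the count filter only through its control level, so its call counts for less. Of 8 genes, 1 was higher and 1 lower (25%, against 20.6% of all genes), with a median log2 fold change of -0.17. With control replicate 1 left out, 2 were higher and 4 lower, where 52.1% of all genes were called. The median was then -0.23. Shmt1, which transfers the carbon of serine to folate in the cytosol (ENSMUSG00000020534, chromosome 11, 60788104 to 60811718, minus strand), had 86.3, 77.2 and 76.8 CPM in shNC replicates 1 to 3 and 99.6, 104 and 99.8 CPM in shZfp207 replicates 1 to 3. All knockdown libraries lay above all controls, from 79.8 ± 4.8 to 102 ± 2.86 CPM (log2 fold change 0.35 with an SE of 0.0868 and adjusted p = 0.0337 in edgeR). Smcr8 on the opposite strand covers 4.74% of its exonic bases.

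Shmt2, its mitochondrial counterpart, had 447, 668 and 709.6 CPM in shNC replicates 1 to 3 and 536, 481 and 484 CPM in shZfp207 replicates 1 to 3. Control replicate 1 was the lowest of all 6 libraries and the other controls were the highest, so the groups overlapped (log2 fold change -0.27 with an SE of 0.185 and adjusted p = 0.341 in edgeR). Without that library Shmt2 was lower in shZfp207 (log2 fold change -0.45 with an SE of 0.0541 and adjusted p = 0.000542 in edgeR). Mthfd1l, which makes formate in mitochondria, followed the same order with 64.9, 133 and 131 CPM in shNC replicates 1 to 3 and 92, 91.4 and 91.7 CPM in shZfp207 replicates 1 to 3, so that its knockdown values lay between control replicate 1 and the other controls (log2 fold change -0.25 with an SE of 0.265 and adjusted p = 0.551 in edgeR; without shNC replicate 1, log2 fold change -0.52 with an SE of 0.0443 and adjusted p = 0.000135 in edgeR).

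Aldh1l2, the mitochondrial 10-formyltetrahydrofolate dehydrogenase, had 43.9, 113 and 108 CPM in shNC replicates 1 to 3 and 53.1, 51.9 and 46.8 CPM in shZfp207 replicates 1 to 3. The control replicate 1 value was below all 3 knockdown values, while the other controls were above them (log2 fold change -0.80 with an SE of 0.338 and adjusted p = 0.143 in edgeR; without shNC replicate 1, log2 fold change -1.12 with an SE of 0.068 and adjusted p = 3.92e-05 in edgeR). D10Wsu102e on the opposite strand covers 14.1% of its exonic bases. Aldh1l1, the cytosolic form, was scarce with 21, 62 and 45 counts in shNC replicates 1 to 3 and 12, 8 and 18 counts in shZfp207 replicates 1 to 3. In CPM it went from 2.92 ± 1.27 to 0.854 ± 0.358, and the groups did not overlap (log2 fold change -1.77 with an SE of 0.456 and adjusted p = 0.0375 in edgeR). Gm15756 on the opposite strand covers 11.05% of its exonic bases.

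Mthfd2, the mitochondrial dehydrogenase and cyclohydrolase typical of dividing cells, had 191, 219 and 193 CPM in shNC replicates 1 to 3 and 248, 248 and 246 CPM in shZfp207 replicates 1 to 3. Its groups did not overlap, but its adjusted p missed the threshold (log2 fold change 0.31 with an SE of 0.0935 and adjusted p = 0.0572 in edgeR), and DESeq2 called it (log2 fold change 0.32, adjusted p = 0.0168). Mthfd2 was higher in shZfp207 without shNC replicate 1 (log2 fold change 0.27 with an SE of 0.0596 and adjusted p = 0.00754 in edgeR). Within the mitochondrial set, edgeR thus called Mthfd2 higher, and Shmt2, Mthfd1l and Aldh1l2 lower, only in the fit without that library, while DESeq2 called Mthfd2 with all libraries. Mthfd1, the cytosolic enzyme with all 3 folate activities, had 100.2, 103 and 103 CPM in shNC replicates 1 to 3 and 111, 104 and 107 CPM in shZfp207 replicates 1 to 3 (log2 fold change 0.08 with an SE of 0.0788 and adjusted p = 0.507 in edgeR). Mthfd2l, a paralog of Mthfd2, had 10.1, 8.43 and 8.43 CPM in shNC replicates 1 to 3 and 8.34, 8.96 and 7.72 CPM in shZfp207 replicates 1 to 3 (log2 fold change -0.09 with an SE of 0.147 and adjusted p = 0.686 in edgeR). For both, the difference did not clearly exceed its SE, and neither was called in either fit.

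Of the glycine cleavage system, the 2 member genes Gldc and Amt were barely expressed, while Gcsh and Dld, its other subunits, had 37.4 to 74.2 CPM and 118 to 177 CPM. Neither Gcsh nor Dld was called with all libraries (log2 fold changes 0.06 and -0.40, edgeR adjusted p = 0.9 and 0.0887). Without shNC replicate 1, Gcsh was called higher (0.43, edgeR adjusted p = 0.00218) and Dld lower (-0.54, edgeR adjusted p = 0.000126). Gldc, the glycine decarboxylase, had 8 to 20 counts per library (log2 fold change 0.41 with an SE of 0.435 and adjusted p = 0.543 in edgeR). Amt, the aminomethyltransferase of the same complex, had 47, 7 and 6 counts in shNC replicates 1 to 3 and 25, 27 and 22 counts in shZfp207 replicates 1 to 3. Control replicate 1 held most of its control counts, 928% of the CPM of the other controls, and the log2 fold change of 0.12 became 1.95 without that library (edgeR adjusted p = 0.939 and 0.0028). In the latter fit both controls were under the filter's count minimum of 10, so Amt was testable only through its knockdown level.

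In the methionine cycle, Ahcy rose and Gnmt fell among 7 tested genes (28.6%, against 20.6% of all genes). Gnmt, glycine N-methyltransferase, which uses up S-adenosylmethionine to methylate glycine (ENSMUSG00000002769, chromosome 17, 46725664 to 46729168, minus strand), had 30, 30 and 35 counts in shNC replicates 1 to 3 and 7, 6 and 11 counts in shZfp207 replicates 1 to 3. All controls lay above all knockdown libraries, with means going from 2.23 ± 0.223 to 0.54 ± 0.192 CPM (log2 fold change -2.03 with an SE of 0.332 and adjusted p = 0.0097 in edgeR). In Gnmt, as in Aldh1l1, fewer than 3 knockdown libraries reached the filter's count minimum of 10 (scaled by library size), so they were testable only through their control level. Ahcy, which splits S-adenosylhomocysteine (ENSMUSG00000027597, chromosome 2, 155059310 to 155074497, minus strand), had 99.3, 104 and 106 CPM in shNC replicates 1 to 3 and 133, 124 and 120.4 CPM in shZfp207 replicates 1 to 3. The groups did not overlap (log2 fold change 0.30 with an SE of 0.0844 and adjusted p = 0.0489 in edgeR). Its transcript is 81.9% at least 95% identical to other genes, and Gm4737, a copy on chromosome 16, held between 48.2% and 58.1% of the counts of the pair in every library. Gm4737 itself had 92.4, 135 and 147 CPM in shNC replicates 1 to 3 and 175, 162 and 154 CPM in shZfp207 replicates 1 to 3 (log2 fold change 0.40 with an SE of 0.179 and adjusted p = 0.157 in edgeR), so the level of Ahcy is uncertain. Without shNC replicate 1, Gm4737 was called higher (log2 fold change 0.22, edgeR adjusted p = 0.0227).

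Mat2a, the methionine adenosyltransferase of dividing cells, had 183, 149.7 and 126 CPM in shNC replicates 1 to 3 and 237, 247 and 155 CPM in shZfp207 replicates 1 to 3. The shZfp207 replicate 3 value was well under the other knockdown values and below control replicate 1, so the groups overlapped (log2 fold change 0.49 with an SE of 0.211 and adjusted p = 0.146 in edgeR). Mat2a was higher without shNC replicate 1 (log2 fold change 0.63 with an SE of 0.192 and adjusted p = 0.0286 in edgeR). A gene on the opposite strand covers 11.3% of its exonic bases, and other genes match 34.3% of its transcript. Mat2b, the regulatory subunit, had 113, 104 and 99.1 CPM in shNC replicates 1 to 3 and 85.3, 88.2 and 85.6 CPM in shZfp207 replicates 1 to 3. All knockdown values were lower than all control values, and the test missed the threshold (log2 fold change -0.27 with an SE of 0.0859 and adjusted p = 0.0666 in edgeR), which DESeq2 and the fit without shNC replicate 1 passed (adjusted p = 0.0314 and 0.00925). The catalytic and the regulatory gene thus had opposite signs in both fits.

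Mtr, methionine synthase, had 12.4, 37 and 36.3 CPM in shNC replicates 1 to 3 and 40.6, 39.8 and 39.6 CPM in shZfp207 replicates 1 to 3. Control replicate 1 was at 33.8% of the other controls, which lay close to the knockdown libraries (log2 fold change 0.49 with an SE of 0.378 and adjusted p = 0.398 in edgeR; without shNC replicate 1, 0.13, adjusted p = 0.137). Mtrr, the reductase that reactivates it, had 28, 27.5 and 22.5 CPM in shNC replicates 1 to 3 and 25.5, 24.9 and 24.2 CPM in shZfp207 replicates 1 to 3 (log2 fold change -0.05 with an SE of 0.121 and adjusted p = 0.794 in edgeR). Ahcyl1, a paralog of Ahcy that acts on the inositol trisphosphate receptor, had 184, 236 and 252 CPM in shNC replicates 1 to 3 and 270.4, 224 and 219 CPM in shZfp207 replicates 1 to 3 (log2 fold change 0.10 with an SE of 0.151 and adjusted p = 0.686 in edgeR).

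**Figure D2:**
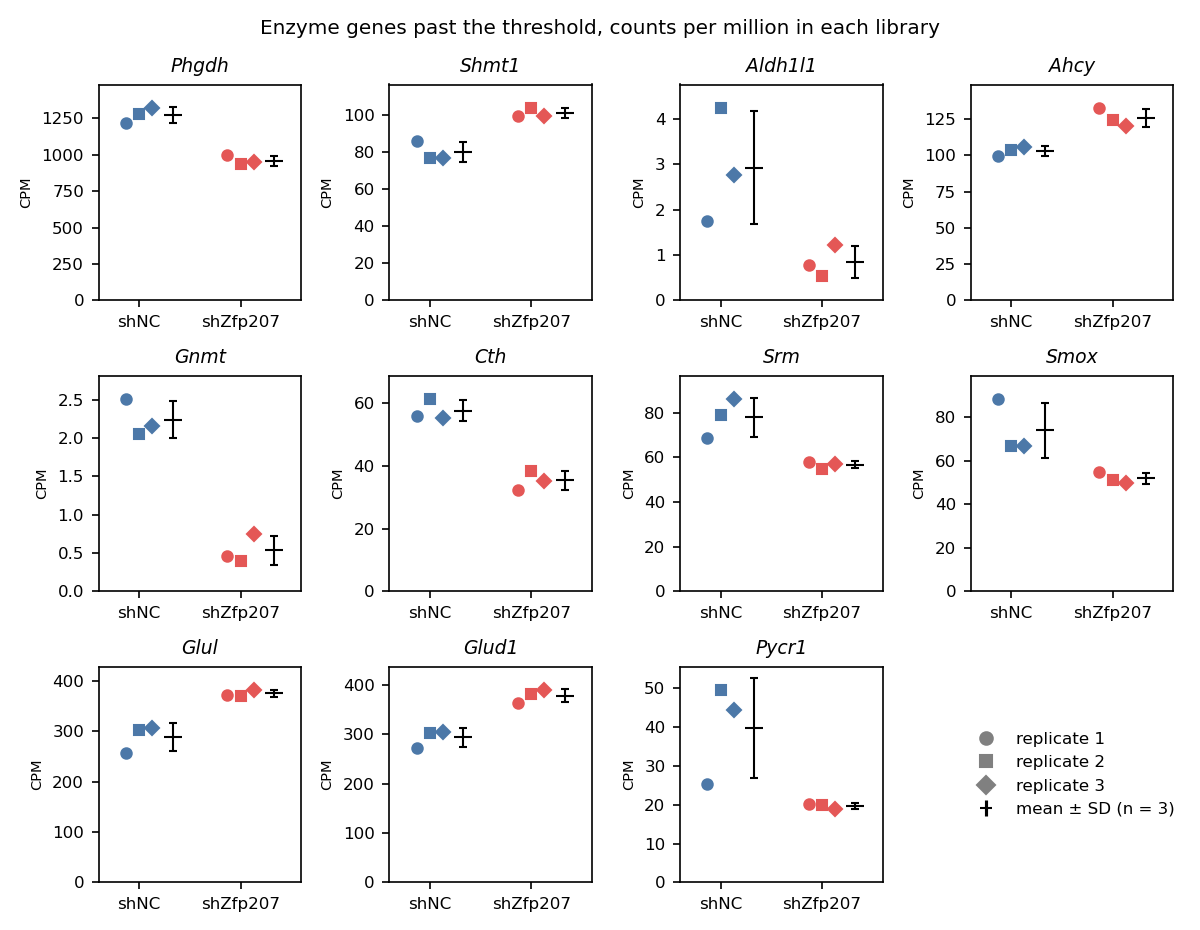
CPM (y axis, from 0) is plotted for the 11 called enzyme genes in each of 3 shNC and 3 shZfp207 libraries, with a bar for the mean ± SD of these values. No gene has overlapping groups, and for Pycr1 control replicate 1 (25.2 CPM) sits close to the knockdown libraries (18.9 to 20.3 CPM).

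Where homocysteine leaves the cycle for cysteine, the final enzyme fell. Cth, cystathionine gamma-lyase, which releases cysteine (ENSMUSG00000028179, chromosome 3, 157894248 to 157925077, minus strand), had 56.1, 61.5 and 55.4 CPM in shNC replicates 1 to 3 and 32.4, 38.5 and 35.3 CPM in shZfp207 replicates 1 to 3. The groups were far apart compared with their spread, with 57.4 ± 3.66 to 35.6 ± 3.2 CPM (log2 fold change -0.69 with an SE of 0.109 and adjusted p = 0.00892 in edgeR), and no annotated gene overlaps its exons. Among the 11 it had the smallest adjusted p. Cbs, which makes cystathionine in the step before, was low with 4.44, 4.93 and 5.35 CPM in shNC replicates 1 to 3 and 5.18, 5.9 and 4.31 CPM in shZfp207 replicates 1 to 3 and did not differ beyond its SE (log2 fold change 0.07 with an SE of 0.193 and adjusted p = 0.816 in edgeR). Gss, glutathione synthetase, had 71.7, 78 and 57.4 CPM in shNC replicates 1 to 3 and 80.9, 79.5 and 89.3 CPM in shZfp207 replicates 1 to 3 (log2 fold change 0.28 with an SE of 0.134 and adjusted p = 0.181 in edgeR). Its groups did not overlap, it was called in neither fit, and genes on the opposite strand cover 15.4% of its exonic bases.

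In the polyamine branch, a synthesis and a breakdown enzyme fell. Of 6 genes, 2 were lower and 0 higher (33.3%, against 20.6% of all genes), with a median log2 fold change of -0.42. Leaving out control replicate 1, the count was 3 lower and 2 higher, where 52.1% of all genes were called. The median was then -0.19. Srm, spermidine synthase (ENSMUSG00000006442, chromosome 4, 148591503 to 148594993, plus strand), had 68.6, 78.9 and 86.3 CPM in shNC replicates 1 to 3 and 58.1, 55 and 57.1 CPM in shZfp207 replicates 1 to 3. All controls were above all knockdown libraries, from 77.7 ± 9.24 to 57 ± 1.39 CPM (log2 fold change -0.45 with an SE of 0.111 and adjusted p = 0.0341 in edgeR). Smox, spermine oxidase (ENSMUSG00000027333, chromosome 2, 131491496 to 131525922, plus strand), had 88.5, 66.8 and 66.7 CPM in shNC replicates 1 to 3 and 54.7, 51.3 and 49.8 CPM in shZfp207 replicates 1 to 3. Here control replicate 1 was the highest library, while in Srm it was the lowest of the controls. The groups of Smox did not overlap (log2 fold change -0.50 with an SE of 0.132 and adjusted p = 0.0413 in edgeR).

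Odc1, ornithine decarboxylase, the entry enzyme of the pathway, had 322, 247 and 246 CPM in shNC replicates 1 to 3 and 327, 327 and 318 CPM in shZfp207 replicates 1 to 3. Its control replicate 1 lay among the knockdown values and the other controls well below them (log2 fold change 0.27 with an SE of 0.124 and adjusted p = 0.17 in edgeR), and without that library it was higher in shZfp207 (log2 fold change 0.40 with an SE of 0.0362 and adjusted p = 0.000162 in edgeR). Other genes are at least 95% identical to 62.8% of its transcript, and the 2 of them in the table held 359 counts against 26002 of Odc1. Sms, spermine synthase, had 18.4, 10.3 and 10.3 CPM in shNC replicates 1 to 3 and 15.9, 16.8 and 16.5 CPM in shZfp207 replicates 1 to 3, with control replicate 1 the highest library and the other controls the lowest (log2 fold change 0.36 with an SE of 0.237 and adjusted p = 0.326 in edgeR; without shNC replicate 1, log2 fold change 0.68 with an SE of 0.0944 and adjusted p = 0.00111 in edgeR). Odc1 and Sms were thus higher and Srm lower in the fit without that library.

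Amd1, the S-adenosylmethionine decarboxylase, had 98.9, 65.2 and 62.6 CPM in shNC replicates 1 to 3 and 52.2, 53.1 and 57.2 CPM in shZfp207 replicates 1 to 3 (log2 fold change -0.46 with an SE of 0.183 and adjusted p = 0.12 in edgeR; without shNC replicate 1, log2 fold change -0.23 with an SE of 0.0687 and adjusted p = 0.0262 in edgeR). Its groups did not overlap, and control replicate 1 was by far the highest library. Nearly all of its transcript (99.8%) is matched at 95% identity by other genes, and the 4 of them in the table held 2870 counts against 5582 of Amd1, so its level is uncertain. Amd2, the coding copy, had the same sign (log2 fold change -0.73 with an SE of 0.276 and adjusted p = 0.108 in edgeR). Without shNC replicate 1, Amd2 was called lower (log2 fold change -0.91, edgeR adjusted p = 0.0115). Sat1, the acetyltransferase that marks polyamines for export, had 75.8, 56.1 and 40.4 CPM in shNC replicates 1 to 3 and 43.1, 44.8 and 41.4 CPM in shZfp207 replicates 1 to 3, with overlapping groups (log2 fold change -0.40 with an SE of 0.216 and adjusted p = 0.234 in edgeR). Other genes match 29.6% of the Sms and 38.6% of the Sat1 transcript at 95% identity or more.

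Among 7 genes of glutamine, glutamate and proline, 2 rose and 1 fell (42.9%, against 20.6% of all genes). Glul, glutamine synthetase (ENSMUSG00000026473, chromosome 1, 153899944 to 153909723, plus strand), had 257, 302 and 307 CPM in shNC replicates 1 to 3 and 373, 370.03 and 383 CPM in shZfp207 replicates 1 to 3, and Glud1, glutamate dehydrogenase (ENSMUSG00000021794, chromosome 14, 34310727 to 34345144, plus strand), had 272, 303 and 305 CPM in shNC replicates 1 to 3 and 363, 380.3 and 390.1 CPM in shZfp207 replicates 1 to 3. Glul rose 1.31-fold (log2 fold change 0.39 with an SE of 0.104 and adjusted p = 0.0421 in edgeR) and Glud1 1.299-fold (log2 fold change 0.38 with an SE of 0.0951 and adjusted p = 0.0352 in edgeR), with no overlap of the groups. Other genes match 40.2% of the Glul and 27.8% of the Glud1 transcript at 95% identity or more, and those listed in the table held 142 counts against 29335 of Glul and 7 counts against 29593 of Glud1, over all libraries. Gpt2, the mitochondrial alanine aminotransferase, had 102, 164 and 171 CPM in shNC replicates 1 to 3 and 199.7, 204 and 199 CPM in shZfp207 replicates 1 to 3. All knockdown values were above all controls (log2 fold change 0.48 with an SE of 0.198 and adjusted p = 0.135 in edgeR), and it was higher without shNC replicate 1 (log2 fold change 0.27 with an SE of 0.041 and adjusted p = 0.00157 in edgeR). Got1, the cytosolic aspartate aminotransferase, had 109, 184 and 199.7 CPM in shNC replicates 1 to 3 and 183, 183 and 215 CPM in shZfp207 replicates 1 to 3 (log2 fold change 0.25 with an SE of 0.228 and adjusted p = 0.487 in edgeR; without shNC replicate 1, 0.02). Gls2, the liver-type glutaminase, had 5.78, 4.45 and 4.37 CPM in shNC replicates 1 to 3 and 3.74, 2.99 and 4.03 CPM in shZfp207 replicates 1 to 3, lower in all 3 knockdown libraries without passing the test (log2 fold change -0.42 with an SE of 0.216 and adjusted p = 0.209 in edgeR).

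Pycr1, which makes proline in mitochondria (ENSMUSG00000025140, chromosome 11, 120635712 to 120643769, minus strand), had 25.2, 49.5 and 44.4 CPM in shNC replicates 1 to 3 and 20.3, 19.97 and 18.9 CPM in shZfp207 replicates 1 to 3. The knockdown libraries were tightly grouped below all controls, from 39.6 ± 13 to 19.8 ± 0.668 CPM (log2 fold change -1.002 with an SE of 0.249 and adjusted p = 0.0341 in edgeR). Aldh18a1, the synthase that turns glutamate into the precursor of proline and ornithine, had 211, 456 and 459 CPM in shNC replicates 1 to 3 and 314, 304 and 304 CPM in shZfp207 replicates 1 to 3. Its knockdown values lay between control replicate 1 and the other controls (log2 fold change -0.28 with an SE of 0.287 and adjusted p = 0.533 in edgeR), and it was lower without that library (log2 fold change -0.57 with an SE of 0.0347 and adjusted p = 4.01e-05 in edgeR). In the windows printed above, Pycr1 had the letters of the ATF4 motif and Aldh18a1 those of the E-box.

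Control replicate 1 stood apart from the other controls in both directions. Its CPM was at 33.8% of the mean of control replicates 2 and 3 for Mtr, 39.7% for Aldh1l2, 46.1% for Aldh18a1, 49.2% for Mthfd1l, 53.7% for Pycr1, 54.5% for Psat1 and 64.9% for Shmt2. For the polyamine genes it was the other way, at 178% for Sms, 157% for Sat1, 155% for Amd1 and 131% for Odc1, with Srm at 83.1%. Among members called in neither fit, log2 fold changes without that library were -0.15 for Sat1, -0.29 for Gls2, 0.31 for Gss, 0.55 for Gldc and 0.06 for Mthfd1. Of the others, Ahcyl1 (-0.031), Mthfd2l (-0.0088), Cbs (0.0028) and Mtrr (-0.0013) were near 0. The part of its high mitochondrial share in these values was not tested. Without it the log2 fold changes of the called genes were 0.40 for Shmt1, 0.27 for Ahcy, 0.31 for Glul and 0.32 for Glud1. Those that fell had -0.43 for Phgdh, -2.03 for Aldh1l1, -1.95 for Gnmt, -0.72 for Cth, -0.54 for Srm, -0.35 for Smox and -1.25 for Pycr1. All kept their direction, and the edgeR adjusted p without it was at most 0.00541.

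**Figure D3:**
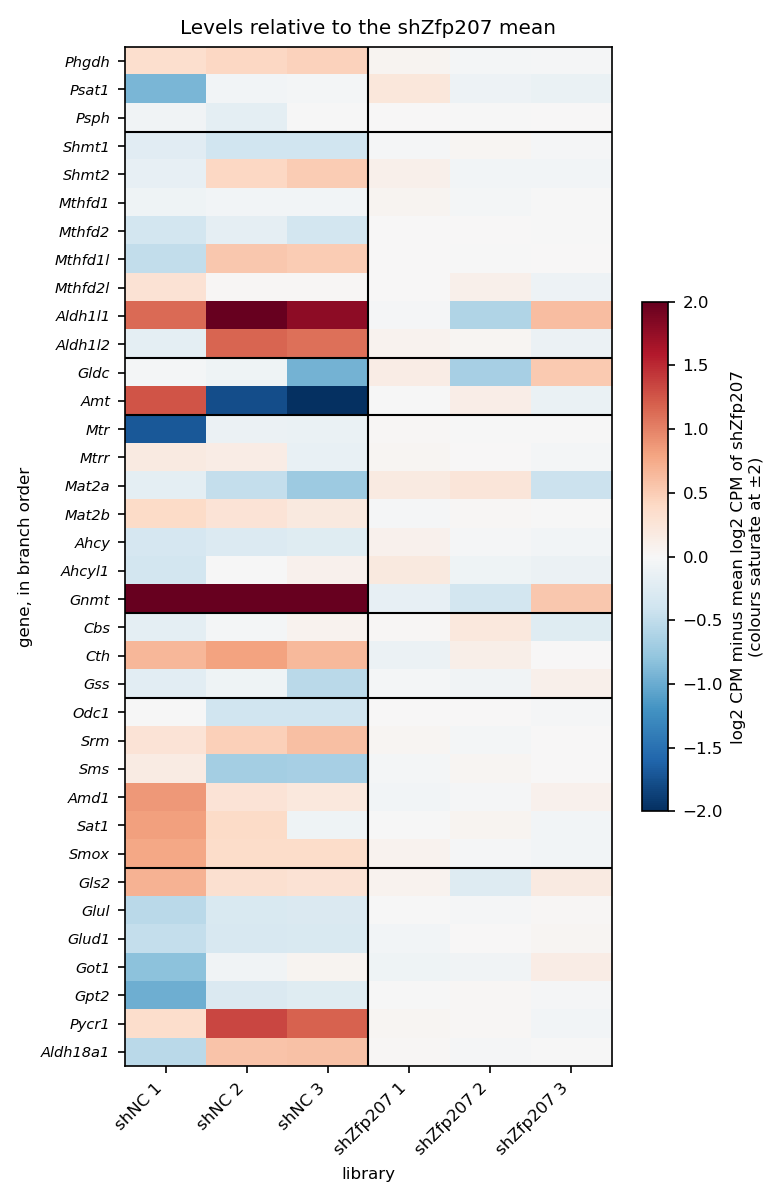
Each cell is the log2 CPM of an enzyme gene in 1 library minus the mean log2 CPM of that gene in shZfp207, for 36 genes in branch order and 6 libraries. The 3 knockdown columns are pale, while the column of shNC replicate 1 differs in colour from the other controls for Psat1, Mthfd1l, Aldh18a1, Mtr and Amt.

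Paired isozymes were compared as a ratio of FPKM within a library, with 0.1 FPKM added to both, which needs no scaling between libraries. Of 9 pairs, Bhmt2 over Bhmt had no counts, and with 3 libraries against 3 the exact permutation test cannot go below p = 0.1. Shmt2 over Shmt1 was 12.8, 21.3 and 22.7 in shNC replicates 1 to 3 and 13.3, 11.4 and 11.9 in shZfp207 replicates 1 to 3. The ratio of control replicate 1 lay within the knockdown range while those of the other controls were well above it (difference of the mean log2 ratio -0.59, two-sided exact p = 0.2, 0.32 after adjustment; without shNC replicate 1, -0.85). Mthfd1l over Mthfd1 differed by -0.25 in the mean log2 ratio (exact p = 0.4, 0.533 after adjustment; without shNC replicate 1, -0.57), and Aldh1l2 over Aldh1l1 by 0.54 (exact p = 0.2, 0.32 after adjustment; without shNC replicate 1, 0.36), both with overlapping groups. The latter turned to -0.25 with 1 FPKM added in place of 0.1, since Aldh1l1 was near 0.

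Among the ratios whose groups did not overlap, Mthfd2 over Mthfd2l was 25.7, 34.9 and 30.7 in shNC replicates 1 to 3 and 39.9, 37.4 and 42.6 in shZfp207 replicates 1 to 3, higher in every knockdown library (exact p = 0.1, 0.267 after adjustment). Got2 over Got1, mitochondrial over cytosolic, was 4.05, 3.63 and 3.29 in shNC replicates 1 to 3 and 3.08, 3.06 and 2.62 in shZfp207 replicates 1 to 3, lower in each knockdown library (exact p = 0.1, 0.267 after adjustment). Neither passed after adjustment over the 8 pairs tested. Mat2a exceeded Mat1a by 78.6 to 136.0 times in control and 92.4 to 121.4 times in knockdown cells, a ratio set largely by that addition because Mat1a was near 0. Gpt2 over Gpt had a difference of 0.41 (exact p = 0.7, 0.8 after adjustment), which turned to -0.19 without shNC replicate 1.

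**Figure D4:**
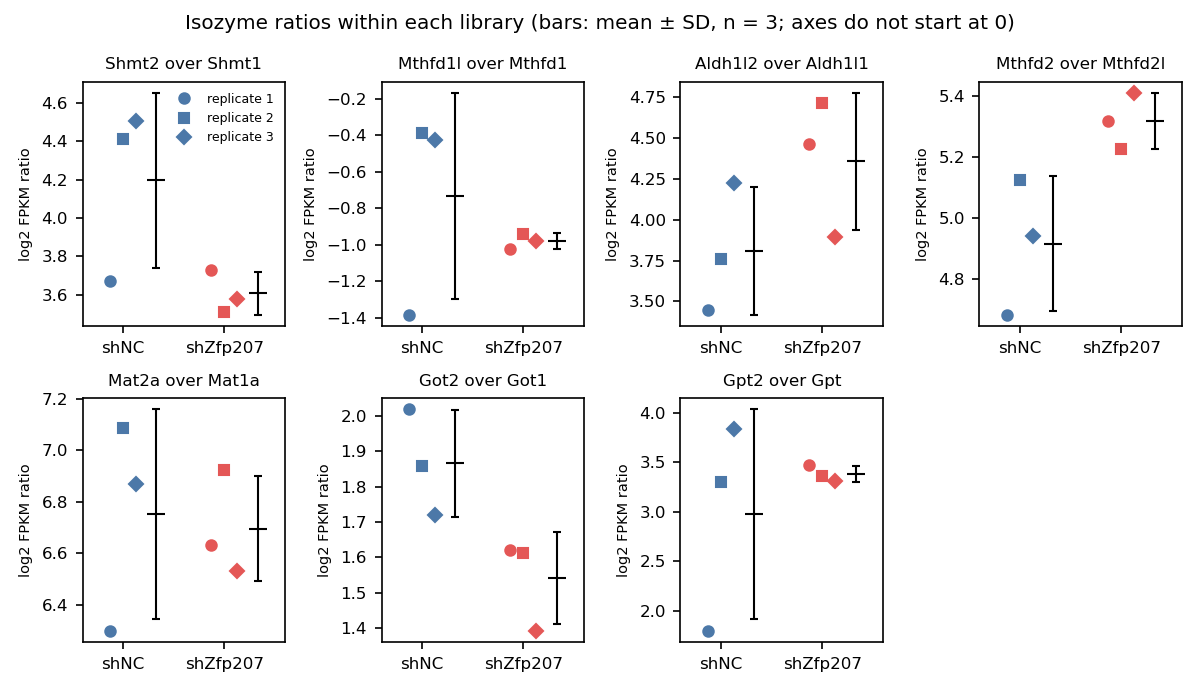
The log2 ratio of FPKM within each library (y axis, pseudocount 0.1) is plotted for 7 isozyme pairs in 3 shNC and 3 shZfp207 libraries, with bars for the mean ± SD. In Shmt2 over Shmt1 and Mthfd1l over Mthfd1, shNC replicate 1 (3.67 and -1.38) lies far below the other controls.

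Genes around these branches gave a similar share of calls. Of 112 genes in 7 lists of transporters, neighbouring enzymes and transcription factors, each counted once, 98 were tested, 7 rose and 15 fell (22.4%, against 20.6% of all genes), with a median log2 fold change of -0.11. Without shNC replicate 1, 18 were higher and 35 lower (against 52.1% of all genes in either direction). All 22 calls were kept in that fit in the same direction. Of the 22, those of Gcat, Tst, Dohh, Pycrl, Ddit3 and Atf5 were kept whichever library was left out. Around serine and glycine, 1 of 8 rose and 1 fell (25%, against 20.6% of all genes). Gcat, which cleaves the threonine product to glycine, had 28.6, 38.3 and 38.8 CPM in shNC replicates 1 to 3 and 16, 16.1 and 13.9 CPM in shZfp207 replicates 1 to 3, lower in every knockdown library (log2 fold change -1.19 with an SE of 0.158 and adjusted p = 0.00593 in edgeR). The serine and alanine carrier gene Slc1a4 rose (log2 fold change 0.62 with an SE of 0.174 and adjusted p = 0.0484 in edgeR). Around folate, 0 of 15 rose and 1 fell (6.67%, against 20.6% of all genes). The fall was that of the folate carrier gene Slc46a1 (log2 fold change -0.74, edgeR adjusted p = 0.0345).

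Around methionine, 1 of 16 rose and 2 fell (18.75%, against 20.6% of all genes). Adk, adenosine kinase, which removes the other product of Ahcy, rose (log2 fold change 0.48 with an SE of 0.0957 and adjusted p = 0.0179 in edgeR). Mmadhc, a cobalamin trafficking protein gene, was among the falls (log2 fold change -0.33 with an SE of 0.0826 and adjusted p = 0.0348 in edgeR). Around cysteine and glutathione, 1 of 18 rose and 3 fell (22.2%, against 20.6% of all genes). Gclc, the catalytic subunit that limits glutathione synthesis, rose (log2 fold change 0.59 with an SE of 0.133 and adjusted p = 0.0258 in edgeR), while Tst, thiosulfate sulfurtransferase, had 76.2, 87 and 93.9 CPM in shNC replicates 1 to 3 and 50.1, 47.4 and 47.8 CPM in shZfp207 replicates 1 to 3 and fell (log2 fold change -0.81 with an SE of 0.108 and adjusted p = 0.0059 in edgeR). Ggt7 and Ggt6, of the gamma-glutamyltransferase family, had log2 fold changes of -1.89 and -1.50 (edgeR adjusted p = 0.0106 and 0.0132). Only 2 knockdown libraries reached the filter's minimum for Ggt6, so it was testable only through its control level.

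Around polyamines, 2 of 13 rose and 2 fell (30.8%, against 20.6% of all genes). The 2 enzymes that make hypusine from spermidine on the translation factor eIF5A moved apart: Dhps, deoxyhypusine synthase, rose (log2 fold change 0.53 with an SE of 0.107 and adjusted p = 0.0182 in edgeR), and Dohh, deoxyhypusine hydroxylase, had 66.1, 76.7 and 77.3 CPM in shNC replicates 1 to 3 and 44.8, 36.5 and 35.3 CPM in shZfp207 replicates 1 to 3 and fell (log2 fold change -0.91 with an SE of 0.129 and adjusted p = 0.00677 in edgeR). Atp13a3, a polyamine transporter gene, rose by 0.47 (edgeR adjusted p = 0.0168), and Arg2, the mitochondrial arginase that makes ornithine, had a log2 fold change of -1.02 (edgeR adjusted p = 0.0296).

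Around glutamine and proline, 1 of 18 rose and 3 fell (22.2%, against 20.6% of all genes), and most of these calls were in proline metabolism. Pycrl, also known as Pycr3, another reductase of proline synthesis, had 47.9, 48.6 and 51.8 CPM in shNC replicates 1 to 3 and 29.1, 23.4 and 24.6 CPM in shZfp207 replicates 1 to 3 and fell (log2 fold change -0.93 with an SE of 0.115 and adjusted p = 0.00501 in edgeR). Prodh, the dehydrogenase that starts proline breakdown, fell (log2 fold change -0.89 with an SE of 0.217 and adjusted p = 0.0318 in edgeR), and Aldh4a1, which completes it, rose (log2 fold change 0.65 with an SE of 0.112 and adjusted p = 0.0114 in edgeR). With Pycr1, genes of both proline synthesis and proline breakdown were therefore among the falls. Nags, N-acetylglutamate synthase, had a log2 fold change of -0.65 (edgeR adjusted p = 0.0496).

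Of 12 transcription factors and regulators of these pathways, 1 rose and 3 fell (33.3%, against 20.6% of all genes). Atf4, the gene of the factor for which the first motif was searched, had 745, 761 and 778 CPM in shNC replicates 1 to 3 and 569.7, 526 and 546 CPM in shZfp207 replicates 1 to 3, with no overlap of the groups (log2 fold change -0.46 with an SE of 0.0907 and adjusted p = 0.0164 in edgeR). Atf5 and Ddit3, other factors of the amino acid response, had log2 fold changes of -1.24 and -1.60 (edgeR adjusted p = 0.00416 and 0.00174). Other regulators of that response among the 12 did not pass with all libraries. Trib3, Cebpb, Sesn2 and Eif2ak4 had log2 fold changes of -0.26, -0.68, 0.22 and 0.03 (edgeR adjusted p = 0.447, 0.264, 0.144 and 0.918). Without shNC replicate 1, Trib3 was called lower (log2 fold change -0.49, edgeR adjusted p = 0.000882) and Sesn2 higher (0.16, edgeR adjusted p = 0.0419). Cebpb and Eif2ak4 were called in neither fit. Nfe2l1, a relative of NRF2, rose with 53.2, 101 and 113 CPM in shNC replicates 1 to 3 and 216, 194 and 476 CPM in shZfp207 replicates 1 to 3, of which shZfp207 replicate 3 was the highest by far (log2 fold change 1.74 with an SE of 0.431 and adjusted p = 0.0337 in edgeR). Myc and Nfe2l2, the gene of NRF2, had log2 fold changes of -0.14 and 0.27 (edgeR adjusted p = 0.334 and 0.225). Without shNC replicate 1, Myc was called lower (log2 fold change -0.19, edgeR adjusted p = 0.0284) and Nfe2l2 higher (0.13, edgeR adjusted p = 0.0427). These are RNA levels, and the activity of the proteins was not measured.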

How the data were processed

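The authors deposited whole-number read counts per gene, not normalized, and FPKM values for the same 34718 genes in 6 libraries. Per the submitters' processing notes, HISAT2 2.0.5, featureCounts 1.5.0-p3 and mm10 were used, with no roles stated. The annotation, the strand setting and the treatment of multiply mapped reads are not stated there. Counts of overlapping or near-identical genes may therefore be mixed. The deposited FPKM values imply the same gene length in all libraries within 0.0223% over 8801 genes, so they carry no scaling beyond the library total.

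The test was run in edgeR 4.0.16 under R 4.3.3. The filter filterByExpr left 11975 genes, then TMM scaling and a quasi-likelihood fit on group followed, with two-sided p adjusted over all genes. SE is the log2 fold change over the square root of F. Means ± SD are TMM-scaled CPM. DESeq2 1.42.0 and other settings were alternatives. Overlap and identity (at least 95% over 100 bases) come from GENCODE M21 and were searched for the members only, and promoters from RefSeq GRCm38.p6.

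Every member is accounted for. Values per library are given for called members, the 2 most abundant of each branch and isozyme pairs, with others added where their libraries are described, and up to 4 called genes of each surrounding list are named. Myc, Nfe2l2, Trib3, Cebpb, Sesn2, Eif2ak4, Gcsh, Dld, Gm4737, Amd2 and the markers named lie outside that rule, picked with their values known. Members, lists and the rule were chosen with earlier results of these data known. No pairing of the libraries by replicate number was detected. A called gene of the surrounding lists and an isozyme pair are not reported here.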

Additional observations from a re-analysis of the deposited data

How the results depend on the processing

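With all libraries, 4 members were higher and 7 lower, and RLE scaling and a filter of at least 1 CPM in 3 libraries gave the same numbers, while DESeq2 gave 5 and 8. Upper-quartile scaling gave 2 higher and 8 lower. With no filter beyond 1 count, 0 were higher and 5 lower. The counts over all genes moved as well, from 1188 higher and 1278 lower of 11975 in the main fit. Of the same 11975, DESeq2 gave 1587 higher and 1651 lower, and upper-quartile scaling 1011 and 1573. With no filter beyond 1 count, 1000 of 18294 genes were higher and 1009 lower. Leaving out 1 library gave 0 to 10 higher and 1 to 13 lower members, and over all genes 296 to 3158 higher and 238 to 3155 lower, the largest counts being those without shNC replicate 1. The 0 higher members arose without any 1 of the other 5 libraries by edgeR, where 15 of 36 members and 35.9% of all genes had an unadjusted p under 0.05 with all libraries. With the replicate number as a block, 0 members were higher and 2 lower (Cth and Gnmt), and 534 genes were higher and 453 lower. Pairing by number was not detected: deviations of same-numbered libraries from their group means correlated across genes at -0.008, 0.00771 and 0.0527. With means of 3 libraries, 1 of them apart from the other controls, this check is weak and cannot exclude pairing. With a library left out, the log2 fold change ranged from -0.37 to 1.95 for Amt (lowest without shNC replicate 3, -0.32 without replicate 2, highest without replicate 1), from -0.031 (without shNC replicate 1) to 0.19 for Ahcyl1, and from -0.040 (without shZfp207 replicate 2) to 0.18 for Cbs. Of the ratios, with a pseudocount of 1 Aldh1l2 over Aldh1l1 turned to -0.25 and Mat2a over Mat1a to 0.36. With a library left out, the latter ranged from -0.28 to 0.11, and Gpt2 over Gpt (lowest without shNC replicate 1) from -0.19 to 0.84. The cause of these changes was not tested. Depth limits Gnmt, Aldh1l1, Amt and Gldc, with at most 62 counts per library.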
